A study of Mus musculus with 9 samples.

Results

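Heat shock proteins are molecular chaperones, and the 10 genes described here are Hspb1, Hspa1a, Hspa1b, Hspa8, Hspa5, Hsph1, Hsp90aa1, Hsp90ab1, Dnajb1 and Hsf1, the gene of the transcription factor that induces many of them. They were taken by gene symbol from a table of 20087 named genes, and all 10 were present. Each reached a normalised count of 10 in at least 3 of the 9 libraries, so all 10 belonged to the 13343 genes that could be tested. The embryos were mouse, of the B6D2F1 background, and received siRNA, a short RNA that lowers the messenger RNA it matches, by injection at the zygote stage. One group received siRNA against both Hdac1 and Hdac2, the genes of a pair of class I histone deacetylases, and is labelled Hdac1/2 cKD. The second, labelled Sin3a KD, had Sin3a targeted, the gene of the scaffold that holds both enzymes in a corepressor complex. The control group received a nonspecific siRNA and is labelled NC. Each group had 3 libraries, each from 60 pooled embryos taken at E2.75, when morulae form. An injected siRNA leaves part of its target's RNA, so neither knockdown is a null. The labels do not say whether the 3 pools of a group came from separate collections, so p-values measure the spread between these pools, which may be technical. The genes were chosen by name with the normalised counts of Hspb1 in the 3 groups already known, high in Hdac1/2 cKD and level in Sin3a KD, so Hspb1 values are given as a description without a test. The other 9 genes were tested.

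Small heat shock proteins such as HSPB1 hold unfolding proteins in a soluble state, and HSP70 proteins, helped by J-domain partners and exchange factors, bind and release them in cycles driven by ATP. HSP90 proteins act later on nearly folded clients such as kinases and steroid receptors, and HSPA5 does the work of HSP70 inside the endoplasmic reticulum. HSF1 is held inactive in unstressed cells and, once active as a trimer, binds heat shock elements, arrays of the unit nGAAn in alternating orientation. In the mouse, Hspa1a and Hspa1b are among the first genes transcribed when the embryonic genome is activated, and Hsf1 is known as a maternal gene needed for development after fertilisation.

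Promoter sequences are shown for Hspb1, the member with the largest difference, for Hspa1a and Hspa1b, which rose together in Hdac1/2 cKD, and for Hspa5, as the member with an endoplasmic reticulum stress element. The 250 bases before each start were searched. Sequences came from RefSeq on build GRCm38.p6, which held promoters for 6 of the 10 genes: Hspb1, Hspa1a, Hspa1b, Hspa5, Hsph1 and Dnajb1. Each is written 5′ to 3′ on the strand of the gene, with the matched letters in capitals. The Hspb1 stretch is chr5:135887759-135887848 on the forward strand, and its capitals are both matches to GAANNTTC, at 117 and 97 bases before the start. The Hspa1a stretch is chr17:34972247-34972346 and the Hspa1b stretch chr17:34959329-34959428, both on the reverse strand. Their letters are identical, with 1 match to GAANNTTC at 104 bases before the start. The Hspa5 stretch is chr2:34772019-34772048 on the forward strand, upstream of the RefSeq start but inside the gene as GENCODE draws it. Its capitals mark CCAAT followed after 9 bases by CCACG, the endoplasmic reticulum stress element.
Hspb1: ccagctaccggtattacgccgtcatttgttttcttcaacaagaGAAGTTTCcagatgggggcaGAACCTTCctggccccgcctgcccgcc
Hspa1a and Hspa1b: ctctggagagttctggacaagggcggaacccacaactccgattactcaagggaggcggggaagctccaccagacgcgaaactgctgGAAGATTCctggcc
Hspa5: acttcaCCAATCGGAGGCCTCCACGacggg

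Both strands were searched, and a match is a description of letters, not a binding site. GAANNTTC occurred in 6.69% of the 32851 promoters of the table, and 75 of them (0.228%) held it more than once, as Hspb1 did. TTCNNGAA, the other order of the pair, can overlap it by 1 unit. It occurred in 7.17% of promoters, and among the members it was found in Hsph1, at 33 bases before the first of its RefSeq starts. Dnajb1 held neither pair in this window. The endoplasmic reticulum stress element occurred in 37 promoters (0.113%), that of Hspa5 among them. The Hspa1a and Hspa1b windows had the same letter at 247 of 250 positions (98.8%).

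In the GENCODE annotation of build GRCm38, the members lie on 7 chromosomes. Hspa1a (chromosome 17, 34969190 to 34972156) and Hspa1b (34956436 to 34959238) are single-exon genes on the reverse strand, 9951 bases apart. Hsp90ab1 is on the same chromosome at 45567775 to 45573271, reverse strand. Hspb1 (135887919 to 135889563, forward) and Hsph1 (149614287 to 149636376, reverse) are on chromosome 5. Hspa5 is on chromosome 2, Hspa8 on 9, Hsp90aa1 on 12, Dnajb1 on 8 and Hsf1 on 15.

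Several members share sequence with other genes, which bears on how reads could be divided among them. In windows of 31 bases, 63.8% of the Hspa1a transcript was also found in Hspa1b, and 67.6% of the Hspa1b transcript in Hspa1a. Hspb1 shared 56.7% with the pseudogene Hsp25-ps1, Hspa8 52.1% with Gm15459 and Hsp90aa1 57.0% with Gm12346. Hsp90ab1 shared 6.1% with its closest copy, Gm6368, and 16.6% with 17 other genes together. Hspa5, Hsph1, Dnajb1 and Hsf1 shared less than 1% with all other genes together. The counting could split reads between copies, over more of the sequence in the first 5 of these genes than in Hsp90ab1. These are shares of sequence, not of counts, and do not give the size of an error in a value. The highest library value was 39.3 counts for Gm12346, 110.5 for Hsp25-ps1 and 34512 for Gm15459.

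The total normalised count of a library lay between 11.92 M and 13.48 M, and estimated depth ranged between 8.44 M and 16.9 M reads, both extremes being NC libraries. The shallowest, NC replicate 3, listed 28.4% of genes at 0, against 13.2% to 23.4% in the other libraries, and stood apart on the first principal component. Hdac1 was at 16.9% of its NC mean and Hdac2 at 13.3% in Hdac1/2 cKD, and Sin3a was at 29.0% in Sin3a KD. Hdac1 was also at 34.3% of its NC mean in Sin3a KD. Of 12 preimplantation embryo markers, 8 were lower in Hdac1/2 cKD than in NC and 4 in Sin3a KD, where 7.8% and 4.36% of all tested genes were lower. Their summed level was 38051 to 40760 in Hdac1/2 cKD, 50337 to 55070 in Sin3a KD and 54964 to 60356 in NC, and the blastocyst marker Sox2 stayed below 40 in every library. Cumulus and granulosa markers summed to 5348 to 5450 in Hdac1/2 cKD, 5473 to 6134 in Sin3a KD and 4787 to 6455 in NC, nearly all of it Nr5a2, which embryos also express. In pooled embryos, fewer cells of a type and less RNA per cell cannot be told apart.

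**Figure D1:**
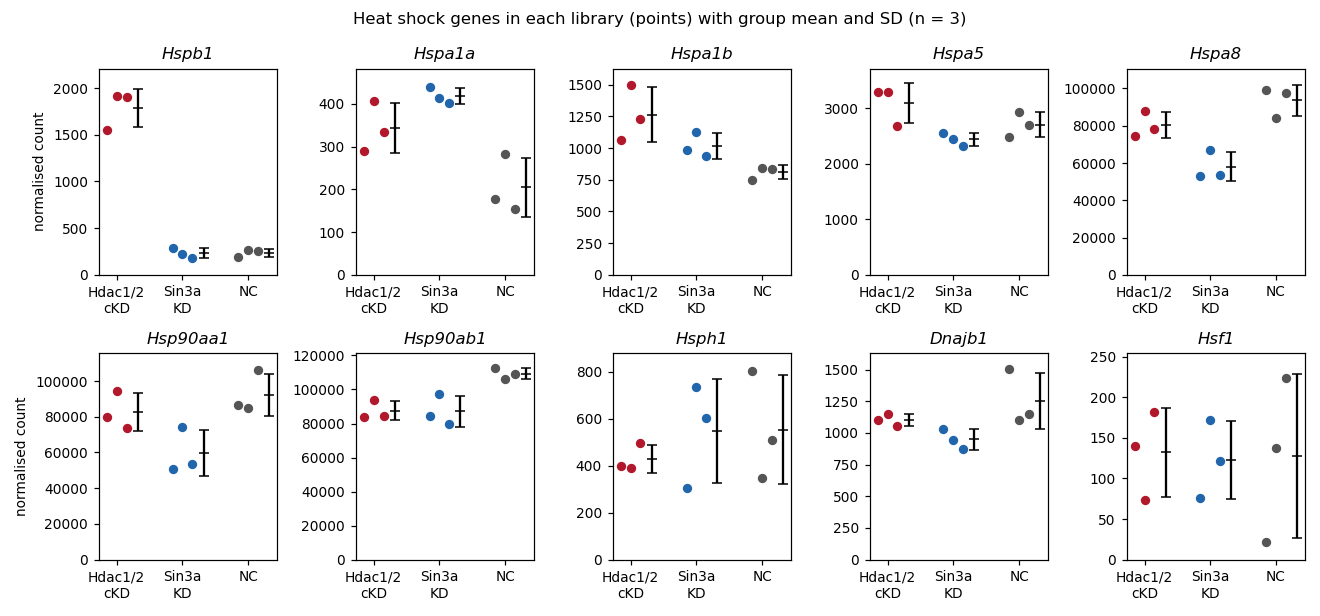
Normalised count of each of the 10 genes (y axis, starting at 0) in every library, with Hdac1/2 cKD in red, Sin3a KD in blue and NC in grey. Points are libraries, and the bar beside them is the group mean with its SD (n = 3). The 3 Hdac1/2 cKD libraries stand between 1557 and 1915 for Hspb1, and the 6 others lie below 300.

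Of the 9 tested members, 2 were higher and 1 was lower in Hdac1/2 cKD than in NC, and 6 did not pass. Across all tested genes 15.6% passed in this comparison, 7.81% as higher and 7.8% as lower. In Sin3a KD against NC, 1 member was higher, 3 were lower and 5 did not pass, where 7.96% of all genes passed, 3.6% as higher and 4.36% as lower. Between the knockdowns, 2 members were higher in Hdac1/2 cKD than in Sin3a KD, 0 were lower and 7 did not pass, where 17.3% of all genes passed, 8.49% as higher and 8.78% as lower. The limma fit found 0 lower members there also at an unadjusted p below 0.05. Groups that did not overlap were also counted. In Hdac1/2 cKD against NC, 2 members lay wholly above and 1 wholly below, where 17.1% and 16% of all genes did. In Sin3a KD against NC, 2 lay above and 4 below, against 13.9% and 13.3% of all genes. Between the knockdowns, 3 lay above and 0 below, against 20.4% and 19.3% of all genes. With 9 genes, some of them near-copies, 1 gene moves each share by more than 10 percentage points, and the shares for Hdac1/2 cKD are not read as a result about these genes. The median log2 fold change of the 9 was -0.16 in Hdac1/2 cKD against NC, -0.14 in Sin3a KD against NC and 0.22 between the knockdowns. Over all tested genes the median was 0.03 in each knockdown against NC and 0.01 between the knockdowns. The NC libraries serve in both knockdown comparisons, so those are not independent. The heat shock genes therefore did not move as one group, and they are taken below by family.

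Hspb1, the small heat shock protein also called HSP25 in mouse, was the member with the largest difference. It had 1557, 1915 and 1902 normalised counts in the Hdac1/2 cKD libraries, 290.2, 222 and 181 in Sin3a KD, against 186, 262 and 253 in NC. Every Hdac1/2 cKD library was far above every other library, while Sin3a KD and NC libraries lay in one range. Group means were 1791 ± 203 in Hdac1/2 cKD, 231 ± 55.3 in Sin3a KD and 234 ± 41.7 in NC (SD, n = 3 each), which puts Hdac1/2 cKD 7.66-fold above NC. The fitted log2 fold change was 2.94 in Hdac1/2 cKD against NC and -0.03 in Sin3a KD against NC, each with an SE of 0.20. As a rank, it was the 138th highest of the 13343 changes in Hdac1/2 cKD against NC. Within sequencing lane 2 the log2 difference between Hdac1/2 cKD and NC was 2.71, and within lane 3 it was 2.91. The near-copy Hsp25-ps1 was listed at 0, 0 and 110.5 in Hdac1/2 cKD, at 0 in all Sin3a KD libraries and at 4.04, 0 and 0 in NC. Adding it to Hspb1 would leave each Hspb1 group in the same place.

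Other small heat shock protein genes were near the limit of detection. Of 11 on the list, 10 were in the table, and 5 besides Hspb1 were tested. None passed in Hdac1/2 cKD against NC (limma, 0 called), and none in Sin3a KD against NC. Of all tested genes, 15.6% and 7.96% passed there. Hspb8, a partner of the cochaperone BAG3, had 27.0, 21.6 and 34.1 counts in Hdac1/2 cKD, against 2.65, 2.82 and 8.10 in Sin3a KD. It passed between the knockdowns at a log2 fold change of 2.49 (SE 0.65, adjusted p = 0.0173, limma), but at NC counts of 12.7, 24.3 and 27.8 neither knockdown passed against NC. This call rested on few counts and was lost without Hdac1/2 cKD replicate 1 (adjusted p = 0.0593, limma) or replicate 3 (0.0775) or without Sin3a KD replicate 1 (0.0624) or replicate 2 (0.0512). The listed eye lens crystallin Cryab stayed below 30 counts in every library. Hspb1 was the only one of these genes above 100 counts in any library.

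Hspa1a and Hspa1b encode the stress-inducible cytosolic HSP70, and both were higher in Hdac1/2 cKD than in NC. Hspa1a had 290.0, 406 and 333 counts in Hdac1/2 cKD, 440.3, 415 and 403 in Sin3a KD, against 178, 284 and 154 in NC. All libraries of both knockdowns were above all NC libraries. The log2 fold change was 0.78 in Hdac1/2 cKD (SE 0.23, adjusted p = 0.0342, limma) and 1.08 in Sin3a KD (SE 0.23, adjusted p = 0.0133), so Hspa1a rose in both. The first call was lost without NC replicate 1 (adjusted p = 0.0956, limma), NC replicate 3 (0.101), Hdac1/2 cKD replicate 2 (0.141) or replicate 3 (0.0852). The second was lost without Sin3a KD replicate 1 (0.061) or replicate 3 (0.0521). Between the knockdowns the change was -0.30 (adjusted p = 0.419).

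Hspa1b had 1067, 1499 and 1226 counts in Hdac1/2 cKD, 986, 1129 and 936 in Sin3a KD, against 749.6, 844 and 837 in NC. Both knockdowns were again above NC in every library, but they overlapped each other. Hspa1b rose in Hdac1/2 cKD by 0.63 on the log2 scale (SE 0.14, adjusted p = 0.00931, limma), a call lost without Hdac1/2 cKD replicate 2 (adjusted p = 0.0546). The call was also lost with lane as a factor (adjusted p = 0.0592, limma). So it was without both NC replicate 1 and Sin3a KD replicate 1, the libraries alone on their lanes (0.0518). In Sin3a KD the change was 0.32 and did not pass (adjusted p = 0.180). Because the pair shares most of its sequence, the counts of both were also added. The sum averaged 1607 ± 277 in Hdac1/2 cKD, 1436 ± 103 in Sin3a KD and 1016 ± 102 in NC (SD, n = 3 each). It was higher than NC by 0.65 in Hdac1/2 cKD (SE 0.14, adjusted p = 0.00614, limma) and by 0.50 in Sin3a KD (SE 0.14, adjusted p = 0.0399).

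The balance within the pair differed between groups in value. Hspa1a made up 21.4%, 21.3% and 21.4% of the sum in Hdac1/2 cKD, 30.9%, 26.9% and 30.1% in Sin3a KD, against 19.2%, 25.2% and 15.5% in NC. The Sin3a KD shares were above all others, and the exact two-sided permutation test gave p = 0.1 against NC, the smallest that 3 against 3 libraries allow, and 0.15 after adjustment over 12 such tests. Among the genes of the immediate early response, the summed level was 6358 to 7357 in Hdac1/2 cKD, 5422 to 7090 in Sin3a KD and 4662 to 5148 in NC. Jund, a subunit of AP-1, was the larger part of most of these sums, with 3882, 4563 and 4283 counts in Hdac1/2 cKD, 4033, 2579 and 3524 in Sin3a KD, against 2740.1, 2137 and 2384 in NC. It rose in Hdac1/2 cKD by 0.81 on the log2 scale (SE 0.15, adjusted p = 0.00308, limma) and did not pass in Sin3a KD (adjusted p = 0.0756). Of 14 tested immediate early genes, 3 were higher and 2 lower in Hdac1/2 cKD, and 2 were higher and 1 lower in Sin3a KD, both against NC. Over all tested genes, 7.81% were higher and 7.8% lower in Hdac1/2 cKD, and 3.6% and 4.36% in Sin3a KD. The median log2 fold change of the list was 0.74 in Hdac1/2 cKD and 0.47 in Sin3a KD, against 0.03 over all tested genes in each. Some of the list, such as Fos and Egr1, had few counts, and the list was not tested as a whole. Ier2 had 674, 742 and 787 counts in Hdac1/2 cKD, 836, 783 and 707 in Sin3a KD, against 313, 445 and 419 in NC, and it rose in both. Nr4a1, an orphan nuclear receptor, had 224, 320.2 and 327 counts in Hdac1/2 cKD, 188, 245 and 174 in Sin3a KD, against 547, 474 and 500.3 in NC, so all knockdown libraries were below NC. Its log2 fold change was -0.82 in Hdac1/2 cKD (SE 0.20, adjusted p = 0.0154, limma). In Sin3a KD it was -1.34 (SE 0.20, adjusted p = 0.0035). The first call was lost without NC replicate 1 (0.0538) or Hdac1/2 cKD replicate 1 (0.0701). With lane as a factor both calls were lost (0.0867 and 0.066, limma), and also without both libraries alone on their lanes (0.0734 and 0.0756). The second was lost too in a fit whose moderation had neither trend nor robust weights (0.0523). Immediate early genes thus passed in both directions, as tested genes in general did. Jun, another subunit of AP-1, had 349, 492 and 349.7 counts in Hdac1/2 cKD, against 801, 708 and 882 in Sin3a KD. It was lower in Hdac1/2 cKD by a log2 fold change of -1.02 (SE 0.16, adjusted p = 0.000972, limma). Whether handling or stress of the embryos has a part in the HSP70 values was not tested.

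Hspa8, the constitutive cytosolic HSP70 known as HSC70, was lower in Sin3a KD. It had 74696, 87922 and 78424 counts in Hdac1/2 cKD, 53147, 66922 and 53718 in Sin3a KD, against 98987, 84199 and 97748 in NC. All 3 Sin3a KD libraries were below every library of the other groups, and Hdac1/2 cKD overlapped NC. Means were 80347 ± 6819.8 in Hdac1/2 cKD, 57929 ± 7793 in Sin3a KD and 93645 ± 8204 in NC (SD, n = 3 each). Hspa8 fell by 0.70 on the log2 scale in Sin3a KD against NC (SE 0.10, adjusted p = 0.00297, limma), and the call was kept without any 1 library. It was lost without both NC replicate 1 and Sin3a KD replicate 1, the libraries alone on their lanes (adjusted p = 0.073, limma). It was also lost with lane as a factor and in a fit whose moderation had neither trend nor robust weights (0.0588). Hdac1/2 cKD was higher than Sin3a KD by 0.48 (SE 0.10, adjusted p = 0.00562, limma). That call was also kept without any 1 library, but not with lane as a factor (0.0757) or under the plain moderation (0.0716). Against NC, Hdac1/2 cKD did not pass at -0.22 (adjusted p = 0.164).

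The near-copy Gm15459 was listed with 29350, 34512 and 29288 counts in Hdac1/2 cKD, 18999, 24817 and 18226 in Sin3a KD, against 29709, 28014 and 33226 in NC. Its Sin3a KD libraries were the lowest too, with a log2 fold change of -0.56 against NC (SE 0.12, adjusted p = 0.0125, limma). Hspa8 and Gm15459 together changed by -0.66 in Sin3a KD against NC (SE 0.10, adjusted p = 0.00358) and by 0.51 in Hdac1/2 cKD against Sin3a KD (SE 0.10, adjusted p = 0.0042). The direction of Hspa8 therefore did not turn on how reads were divided between these copies.

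HSP90 has a stress-inducible cytosolic form, from Hsp90aa1, and a constitutive one, from Hsp90ab1. Hsp90aa1 had 79833, 94497 and 73833 counts in Hdac1/2 cKD, 50928, 74355 and 53729.9 in Sin3a KD, against 86677, 84685 and 105945 in NC. Every Sin3a KD library was below every NC library, while Sin3a KD replicate 2 reached into the Hdac1/2 cKD range. Hsp90aa1 fell by 0.64 on the log2 scale in Sin3a KD against NC (SE 0.14, adjusted p = 0.0204, limma) and was higher in Hdac1/2 cKD than in Sin3a KD by 0.48 (SE 0.14, adjusted p = 0.0384). Against NC, Hdac1/2 cKD changed by -0.16 and did not pass (adjusted p = 0.501). The fall in Sin3a KD was not called without NC replicate 1 (adjusted p = 0.0525, limma), NC replicate 3 (0.0694), Sin3a KD replicate 1 (0.0825) or Sin3a KD replicate 3 (0.0912). The difference between the knockdowns was not called without NC replicate 1 (0.0544), Hdac1/2 cKD replicate 1 (0.0811) or replicate 2 (0.134), or Sin3a KD replicate 1 (0.139) or replicate 3 (0.129).

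Hsp90ab1 was lower in both knockdowns by a like amount. It had 84062, 93842 and 84361 counts in Hdac1/2 cKD, 84308, 97469 and 79549 in Sin3a KD, against 112567, 106023 and 109251 in NC. All 6 knockdown libraries were below the 3 NC libraries, and the knockdowns overlapped each other. The log2 fold change was -0.32 in Hdac1/2 cKD (SE 0.08, adjusted p = 0.0170, limma) and -0.33 in Sin3a KD (SE 0.08, adjusted p = 0.0263), against 0.01 between them (adjusted p = 0.962). The first call was lost without NC replicate 1 (0.0532, limma), Hdac1/2 cKD replicate 1 (0.078) or replicate 3 (0.0773). The second was lost without NC replicate 1 (0.0788), NC replicate 3 (0.0545), Sin3a KD replicate 1 (0.110) or Sin3a KD replicate 3 (0.111).

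**Figure D2:**
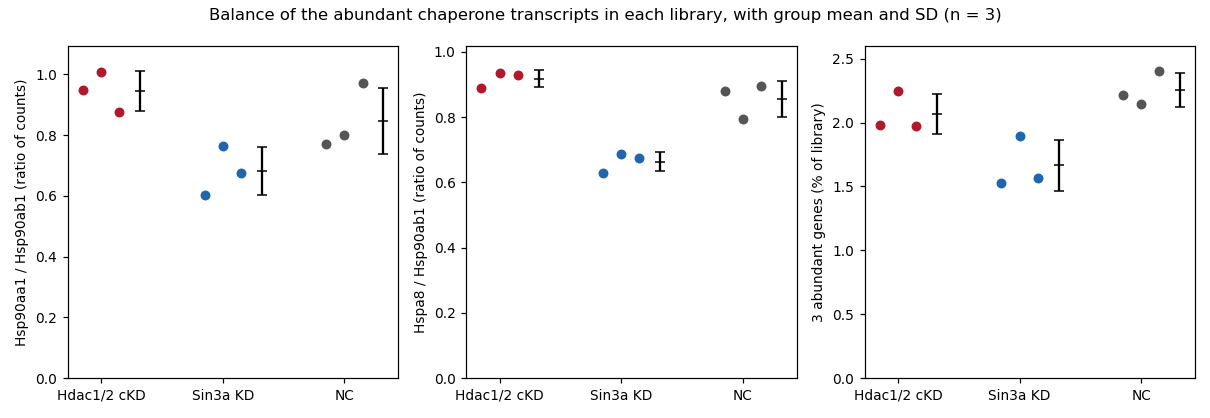
Ratio of Hsp90aa1 to Hsp90ab1 counts, ratio of Hspa8 to Hsp90ab1 counts and percent of the library taken by the 3 genes together (y axes, starting at 0), with 1 point per library and the group mean with its SD (n = 3). Sin3a KD libraries in blue are the lowest in all 3 panels, with Hdac1/2 cKD in red and NC in grey.

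Together these 3 genes made up 2.07% ± 0.156 of all normalised counts in Hdac1/2 cKD, 1.66% ± 0.201 in Sin3a KD and 2.25% ± 0.134 in NC (SD, n = 3 each). Hsp90ab1 had the highest count of any gene in 8 of the 9 libraries. The ratio of Hsp90aa1 to Hsp90ab1 was 0.95, 1.01 and 0.875 in Hdac1/2 cKD, 0.604, 0.763 and 0.675 in Sin3a KD, against 0.77, 0.799 and 0.97 in NC. The ratio of Hspa8 to Hsp90ab1 averaged 0.918 ± 0.0261 in Hdac1/2 cKD, 0.664 ± 0.0297 in Sin3a KD and 0.856 ± 0.0542 in NC (SD, n = 3 each). For both ratios and for the share of the library, Sin3a KD lay below both other groups without overlap. The exact two-sided permutation test gave p = 0.1 for each of these differences, the smallest it can give with 3 against 3 libraries, and 0.15 after adjustment.

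Hspa5, also called BiP or GRP78, is the HSP70 of the endoplasmic reticulum and rises in the unfolded protein response. It had 3297, 3291 and 2680.3 counts in Hdac1/2 cKD, 2549, 2446 and 2321 in Sin3a KD, against 2476, 2934 and 2688 in NC. Hdac1/2 cKD was above Sin3a KD in all libraries, and both overlapped NC. The log2 fold change was 0.34 between the knockdowns (SE 0.11, adjusted p = 0.0517, limma), which did not pass. Against NC it was 0.19 in Hdac1/2 cKD (adjusted p = 0.272) and -0.14 in Sin3a KD (adjusted p = 0.462). In a fit with the replicate block, the difference between the knockdowns passed (adjusted p = 0.0467, limma), and it also passed without Hdac1/2 cKD replicate 3 (0.0266) or without any 1 of the NC libraries (0.0407 to 0.0466).

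Other genes of the endoplasmic reticulum stress response moved in both directions. Of 27 tested, 3 were higher and 2 lower in Hdac1/2 cKD against NC, and 2 higher and 3 lower in Sin3a KD against NC. In Hdac1/2 cKD against Sin3a KD, 4 were higher and 2 lower. Over all tested genes, 7.81% were higher and 7.8% lower in Hdac1/2 cKD against NC. These shares were 3.6% and 4.36% for Sin3a KD against NC, and 8.49% and 8.78% between the knockdowns. Calls in both directions are thus found over all genes too, and the counts of this list were not tested against them. Hsp90b1, the HSP90 of this compartment, had 2507, 2789.7 and 2357 counts in Hdac1/2 cKD, 1102, 1197 and 1176 in Sin3a KD, against 1382, 1434 and 1769 in NC. Hdac1/2 cKD stood above both other groups in every library, by 0.74 against NC (SE 0.12, adjusted p = 0.00117, limma) and 1.14 against Sin3a KD (SE 0.12, adjusted p = 5.54e-05). Pdia4, a disulfide isomerase, had 1462, 1501 and 1383 counts in Hdac1/2 cKD, 452, 704 and 503 in Sin3a KD, against 848, 848 and 943 in NC, the same order of groups. Its rise in Hdac1/2 cKD was 0.72 against NC (SE 0.16, adjusted p = 0.0073, limma). Dnajb9, the J-domain partner of HSPA5 also called ERdj4, went the other way. It had 3104, 2744 and 2428 counts in Hdac1/2 cKD, 3479, 3265 and 2871 in Sin3a KD, against 5429, 4323 and 5432 in NC, with a log2 fold change of -0.87 in Hdac1/2 cKD (SE 0.12, adjusted p = 0.000538, limma) and -0.66 in Sin3a KD (SE 0.12, adjusted p = 0.00845). Sdf2l1, which acts with another J-domain protein of this compartment, was higher in Sin3a KD than in both other groups. It had 243, 297 and 222 counts in Hdac1/2 cKD, 564, 559 and 470.1 in Sin3a KD, against 226, 316 and 314 in NC. Hdac1/2 cKD overlapped NC, and Sin3a KD was above NC by 0.91 on the log2 scale (SE 0.19, adjusted p = 0.0136, limma). Without 1 library at a time, that adjusted p rose to as much as 0.0681.

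Dnajb1, a J-domain partner of cytosolic HSP70, had 1105, 1153 and 1057 counts in Hdac1/2 cKD, 1032, 945 and 869.7 in Sin3a KD, against 1504, 1105 and 1147 in NC. Sin3a KD was below both other groups in every library, by values that did not pass: -0.39 against NC (adjusted p = 0.0947, limma) and, for Hdac1/2 cKD against Sin3a KD, 0.22 (adjusted p = 0.301). Hsph1, the HSP110 that acts as an exchange factor for HSP70, had 399, 390.5 and 498 counts in Hdac1/2 cKD, 306, 736 and 606 in Sin3a KD, against 804, 346 and 511 in NC. Sin3a KD and NC libraries each spread over a range of more than 400 counts, and no comparison passed (adjusted p = 0.621 to 0.979, limma). With an SE of 0.34 on the log2 scale, a change of Hsph1 as large as that of Hspa8 could have gone undetected.

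Hsf1 itself was the member with the lowest level and the widest spread. It had 141, 74.0 and 181 counts in Hdac1/2 cKD, 75.4, 172 and 121 in Sin3a KD, against 21.5, 138 and 224 in NC. The NC range covered the whole range of both knockdowns. No comparison passed (adjusted p = 0.723 to 0.959, limma), with an SE of 0.78. In Sin3a KD the mean of the counts was slightly below NC while the fitted log2 fold change was 0.40, a difference in sign that rests on NC replicate 1: without it the change was -0.59. The activity of HSF1 depends on its trimer state and modification, which RNA levels do not show. Hsf2, which encodes a related factor active in early embryos, also passed in no comparison. Of 9 tested genes of heat shock factors and their regulators, 2 were higher and 0 lower in Hdac1/2 cKD against NC. In Sin3a KD against NC, 0 passed. Over all tested genes, 7.81% were higher and 7.8% lower in Hdac1/2 cKD against NC, and 7.96% passed in Sin3a KD against NC.

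**Figure D3:**
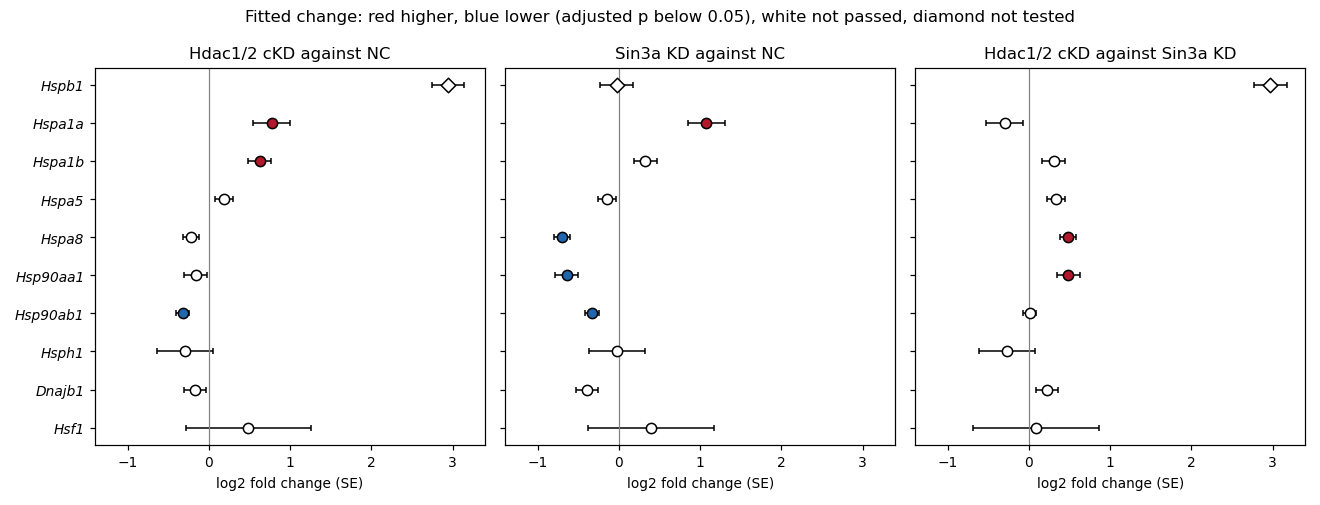
Fitted log2 fold change of each gene (x axis, bars: SE) in the 3 comparisons, with red for higher and blue for lower at an adjusted p below 0.05, white for not passed and diamonds for Hspb1, which was not tested. Hspb1 lies near 3 in both comparisons of Hdac1/2 cKD and near 0 in Sin3a KD against NC, and the tested genes lie between -0.70 and 1.08.

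The plot of fitted changes sets the tested genes against Hspb1. Their log2 fold changes ran between -0.32 and 0.78 in Hdac1/2 cKD against NC, between -0.70 and 1.08 in Sin3a KD against NC, and between -0.30 and 0.48 between the knockdowns. All 9 called changes of members kept their sign in every alternative fit, and all 12 of their values within a single lane had the sign of the overall change. Where 2 groups do not overlap, the sign within a lane is fixed in advance. That held for every called change except Hsp90aa1 between the knockdowns, so the lane signs say little about an effect of lane. None of the 9 calls was kept in all alternatives.

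**Figure D4:**
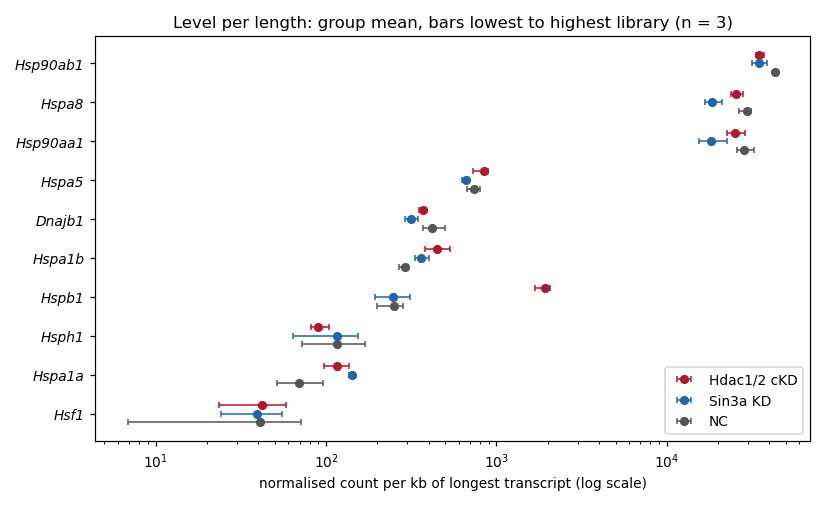
Normalised count per kb of the longest annotated transcript (x axis, log scale) for each gene, as group mean with bars for the lowest and the highest library (n = 3), in red for Hdac1/2 cKD, blue for Sin3a KD and grey for NC. Hsp90ab1, Hspa8 and Hsp90aa1 lie above all other genes in every group, and Hspb1 is near 1926 per kb in Hdac1/2 cKD and near 250 in the other groups.

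Levels of different genes were compared per kb of the longest annotated transcript. In NC, Hsp90ab1 averaged 43365 normalised counts per kb, Hspa8 29653 and Hsp90aa1 28173, and the libraries of Hspa8 and Hsp90aa1 overlapped. Hspa5 followed at 735 per kb, Dnajb1 at 418, Hspa1b at 289 and Hspb1 at 251, with Hspa1b and Hspb1 overlapping. Hsph1 at 116, Hspa1a at 69.1 and Hsf1 at 40.8 per kb were the lowest, and each overlapped its neighbour. In Hdac1/2 cKD, Hspb1 reached 1926 ± 218 per kb (SD, n = 3). There it ranked 4 among the 10 genes, above Hspa5 at 841 per kb, against rank 7 in both Sin3a KD and NC. It remained over 10-fold below the 3 abundant genes. The longest transcript of Hspa8, Hsph1 and Hsf1 retains an intron. With the longest coding transcript in its place, Hspa8 was at 39116 per kb in NC, and the order of the 10 genes in NC was unchanged.

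The wider chaperone network was counted from lists written from general knowledge, 124 genes besides the members, of which 121 were in the table and 111 were tested. In Hdac1/2 cKD against NC, 9 were higher and 11 lower, which is 18% of them. In Sin3a KD against NC, 4 were higher and 10 lower (12.6%). Between the knockdowns, 10 were higher and 3 lower in Hdac1/2 cKD (11.7%). Their median log2 fold change was -0.02 in Hdac1/2 cKD against NC, -0.08 in Sin3a KD against NC and 0.07 between the knockdowns. Over all tested genes the shares were 15.6%, 7.96% and 17.3% in these 3 comparisons, so the share of chaperones was above it in both knockdowns against NC and below it between the knockdowns. These differences were not tested, and nothing particular to chaperones is read from them.

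Among HSP70 and HSP110 genes, Hspa4, an HSP110 exchange factor, had 6232, 6458 and 5533 counts in Hdac1/2 cKD, 2898, 3724 and 2719 in Sin3a KD, against 6258, 4554 and 5360.1 in NC. As with Hspa8, every Sin3a KD library was the lowest. Hspa4 fell by 0.79 on the log2 scale in Sin3a KD against NC (SE 0.14, adjusted p = 0.00542, limma) and was higher in Hdac1/2 cKD than in Sin3a KD by 0.97 (SE 0.14, adjusted p = 0.000405). The mitochondrial HSP70 gene Hspa9 did not pass in any comparison. Hspd1, the mitochondrial chaperonin HSP60, had 6505, 6374 and 6948 counts in Hdac1/2 cKD, against 4682, 5271 and 4595 in Sin3a KD, and was higher by 0.45 (SE 0.09, adjusted p = 0.00383, limma).

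Of 42 J-domain genes, 2 were higher and 8 lower in Hdac1/2 cKD against NC, where 7.81% of all tested genes were higher and 7.8% lower. In Sin3a KD against NC, 3 were higher and 5 lower, with 3.6% and 4.36% of all genes. Between the knockdowns, 3 were higher and 2 lower, with 8.49% and 8.78% of all genes. The direction of the list was not tested. Dnajb6, a J-domain protein that keeps aggregation-prone proteins soluble, had 14949, 13188 and 12647 counts in Hdac1/2 cKD, 10414, 11907 and 9767 in Sin3a KD, against 20364, 17071 and 18901 in NC. It was lower in both, by a log2 fold change of -0.47 in Hdac1/2 cKD (SE 0.10, adjusted p = 0.00736, limma) and -0.81 in Sin3a KD (SE 0.10, adjusted p = 0.00174). Dnajc15, which sits at the mitochondrial import machinery, had 193, 202 and 222 counts in Hdac1/2 cKD, against 393, 348 and 591 in NC. It was lower by a log2 fold change of -1.07 (SE 0.20, adjusted p = 0.0035, limma).

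Of 30 exchange factors and HSP90 cochaperones, 4 were higher and 2 lower in Hdac1/2 cKD against NC. In Sin3a KD against NC, 1 was higher and 3 were lower, and between the knockdowns 2 were higher and 0 lower. Over all tested genes, 7.81% were higher and 7.8% lower in Hdac1/2 cKD against NC. These shares were 3.6% and 4.36% for Sin3a KD against NC, and 8.49% and 8.78% between the knockdowns. The counts were not tested against these shares. Fkbp4, the immunophilin FKBP52 of steroid receptor complexes, had 10622, 11543 and 11875 counts in Hdac1/2 cKD, 10595, 9869 and 10558 in Sin3a KD, against 7648, 8526 and 8169 in NC. It rose in Hdac1/2 cKD by 0.48 (SE 0.08, adjusted p = 0.00188, limma) and in Sin3a KD by 0.35 (SE 0.08, adjusted p = 0.0219). The call in Sin3a KD was lost without NC replicate 1 (adjusted p = 0.0696, limma), Sin3a KD replicate 1 (0.097) or Sin3a KD replicate 3 (0.0821). Ptges3, the cochaperone p23, had 6491, 6740.3 and 5894 counts in Hdac1/2 cKD, 5380.4, 6033 and 4733 in Sin3a KD, against 8582, 7526 and 8689 in NC. It fell by 0.37 in Hdac1/2 cKD (SE 0.11, adjusted p = 0.0281, limma) and by 0.62 in Sin3a KD (SE 0.11, adjusted p = 0.00542). The call in Hdac1/2 cKD was lost without NC replicate 1 (adjusted p = 0.0767, limma), NC replicate 3 (0.0679) or any 1 of the Hdac1/2 cKD libraries (0.0528 to 0.119). With lane as a factor both calls of Ptges3 were lost (0.114 and 0.0919, limma), and also under the plain moderation (0.122 and 0.0657). Tomm34, a cochaperone of mitochondrial import, had 659.5, 437 and 521 counts in Hdac1/2 cKD, against 249, 264 and 278 in NC, and rose by 1.01 (SE 0.18, adjusted p = 0.00269, limma). None of 18 subunits of the cytosolic chaperonin, prefoldin and tubulin folding factors passed against NC in either knockdown (limma, 0 called), and 1 was lower between the knockdowns.

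**Figure D5:**
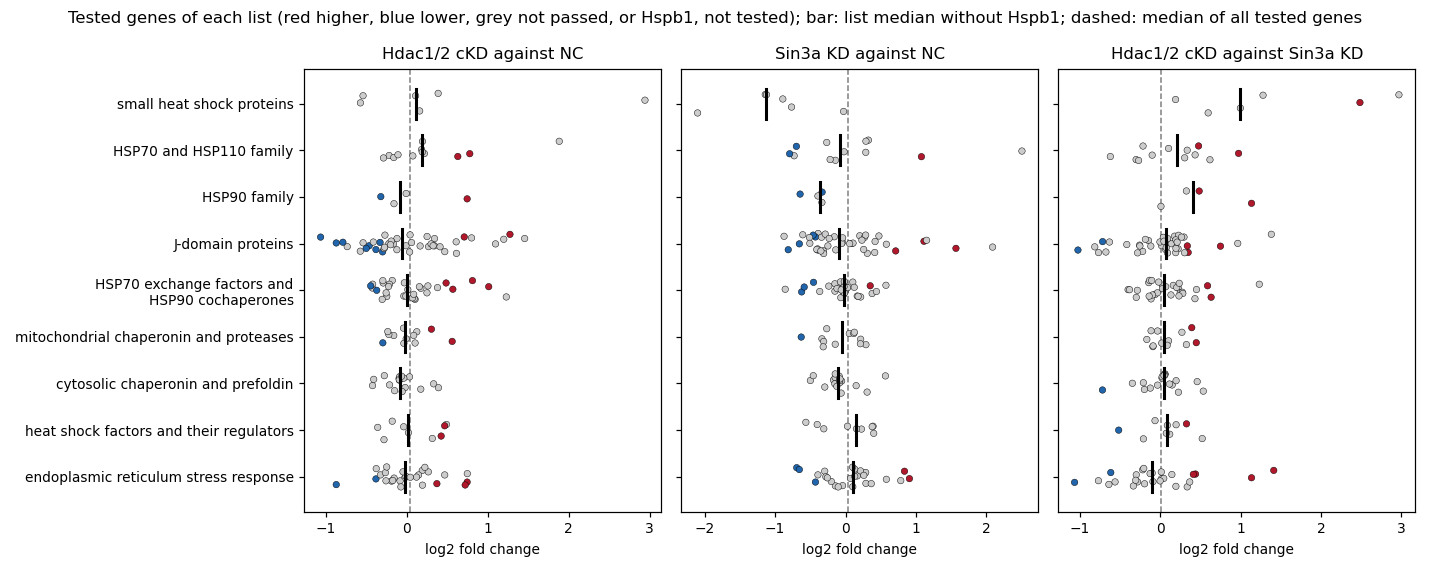
Fitted log2 fold change (x axis) of every tested gene of 9 lists in the 3 comparisons, with red for higher and blue for lower at an adjusted p below 0.05. Each point is a gene, black bars are list medians without Hspb1, and the dashed line is the median of all tested genes. Called genes lie on both sides in the J-domain and the endoplasmic reticulum lists in all 3 panels.

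Genes known as acute targets of HSF1 were counted as their own list, which holds 8 of the members. Of its 21 tested genes besides Hspb1, 5 were higher and 3 lower in Hdac1/2 cKD against NC, 2 higher and 6 lower in Sin3a KD against NC, and 4 higher and 0 lower between the knockdowns. Over all tested genes, 7.81% were higher and 7.8% lower in the first comparison, 3.6% and 4.36% in the second, and 8.49% and 8.78% in the third. Tested members make up 7 of the 21, and the counts were not tested against the other genes. The median log2 fold change was -0.06 in Hdac1/2 cKD against NC, -0.22 in Sin3a KD against NC and 0.20 between the knockdowns. In Hdac1/2 cKD the higher ones included Hspa1b, Hspa1a and Fkbp4, and the lower ones Hsp90ab1. In Sin3a KD the 2 higher ones were Hspa1a and Fkbp4, both also higher in Hdac1/2 cKD, and the lower ones included Hspa8, Stip1, Hsp90aa1 and Hsp90ab1. Bag3, a classical target of HSF1 and a partner of HSPB8, had 1483, 1459 and 1259 counts in Hdac1/2 cKD, 1331, 1329.8 and 1336 in Sin3a KD, against 1961, 1675 and 1543 in NC, and did not pass (adjusted p = 0.108 in Hdac1/2 cKD and 0.0742 in Sin3a KD, limma).

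Across the 9 libraries, the members fell into patterns that the group differences largely set, so correlations of log2 values are given as a description. Hspa8 and Hsp90aa1 had r = 0.95, and Hspa8 and Dnajb1 r = 0.79. Hspb1 had r = 0.78 with Hspa1b, 0.24 with Hspa1a and 0.19 with Hsf1. Of all tested genes, those most like Hspb1 by this measure were Mrfap1 (r = 0.987), Thyn1 (0.986), Ptk7 (0.981), Exoc3l4 (0.981) and Suds3 (0.978), over 9 libraries each. Ptk7 had 472, 739.8 and 644 counts in Hdac1/2 cKD, 80.6, 77.5 and 93.9 in Sin3a KD, against 71.4, 69.7 and 90.1 in NC. Thyn1 and Exoc3l4 were listed at 0 in every Sin3a KD and NC library. Suds3, a subunit of the Sin3 complex, averaged 2416 ± 67.5 in Hdac1/2 cKD, 1932 ± 80.4 in Sin3a KD and 1889 ± 47.6 in NC (SD, n = 3 each).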

How the data were processed

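Polyadenylated RNA was sequenced in 9 libraries. Per the submitters' processing notes, reads were counted with Salmon and normalised with DESeq2 on build GRCm38, with versions and transcripts not given in the sources used here. Deposited signal values are gene counts divided by normalisation factors, called normalised counts; whole reads could not be recovered, since 60.0% to 72.4% of low values lay within 0.1 of a step, so depth is an estimate. Added RFP and GFP RNA, named per the labels, had 0 entries in the table, so total RNA per embryo is not known. A line without a name (at most 0.00896% of a library) was left out.

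Genes that reached 10 in 3 or more libraries were fitted as log2(value + 1), with 1 mean per group over all 9 libraries, in limma 3.58.1 (R 4.3.3, trend and robust, 6 residual degrees of freedom). Low genes' changes are understated by the pseudocount of 1. Benjamini-Hochberg adjustment ran over all tested genes, with a threshold of 0.05. The fit was tested on simulated data. Replicate numbers served as names. Lanes differed between groups, as their descriptions show. Lists were written from general knowledge, and the members and lists were chosen with earlier results of these data known. Named genes were the members, the targets, up to 4 called genes (or the top 2 by adjusted p) per list and comparison, and the 5 genes most correlated with Hspb1; those shown were picked from these after their values were seen. Hspa9, Hsf2, Bag3 and Cryab were added outside the rule. Alternatives changed the pseudocount, filter, scaling (equal totals, or the trimmed mean of M values, TMM), moderation, groups fitted, blocks and libraries, and summed near-copies. Coordinates and transcripts came from GENCODE and promoters from RefSeq.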

Additional observations from a re-analysis of the deposited data

How the results depend on the processing

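Called changes of the 9 tested members kept their direction in all alternatives, but counts near the threshold moved. Counts are given as higher and lower, first for Hdac1/2 cKD and next for Sin3a KD, both against NC, and last between the knockdowns, which were 2 and 1, 1 and 3, and 2 and 0 members, and 9 and 11, 4 and 10, and 10 and 3 other chaperone genes. With moderation without trend and robust, members were 1 and 0, 0 and 0, and 0 and 0, and other chaperones 5 and 4, 0 and 0, and 6 and 3. With lane as a factor, members were 0 throughout, and chaperones 6 and 5, 0 and 0, and 4 and 0. Without NC replicate 1 and Sin3a KD replicate 1, alone on their lanes, members were 0 and 0, 0 and 0, and 1 and 0, and chaperones 5 and 3, 0 and 1, and 4 and 0. The lane fit adds nothing from these 2 libraries, so it has fewer samples behind it. Fitting the 2 groups of a comparison alone gave 1 higher member in Hdac1/2 cKD against NC. It gave 2 lower members in Sin3a KD against NC, without Hsp90ab1. Between the knockdowns it left members at 2 and 0, with Hspa5 added and Hsp90aa1 lost. Chaperones were 2 and 6 in Sin3a KD against NC, with 8 lower between the knockdowns. No filter gave 1 higher member between the knockdowns and 2 lower in Sin3a KD against NC, both without Hsp90aa1. A mean of at least 50 and equal totals each gave 3 higher members between the knockdowns, with Hspa5 added. A mean of at least 50 gave 6 lower chaperones there, and equal totals gave 6 lower chaperones in Hdac1/2 cKD against NC. Hspa1a and Hspa1b summed, which leaves 1 gene fewer, gave 1 higher member in Hdac1/2 cKD against NC. Summing Hspa8 and Gm15459, chosen after seeing the data, changed no count of members. Without 1 library at a time, members ranged over 0 to 2 higher and 0 to 1 lower, 0 to 1 and 1 to 3, and 1 to 3 and 0; chaperones over 4 to 8 and 4 to 12, 0 to 6 and 5 to 13, and 4 to 10 and 0 to 7. The cause of these shifts was not tested. Equal totals moved the median log2 change of all genes to 0.15 for Hdac1/2 cKD, with 0.12 for Sin3a KD, and the split of calls to 1386 higher and 675 lower and to 741 and 425.

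Direction turned only for changes that did not pass. With lane as a factor, Hsph1 was at 0.093 and Hsf1 at -0.38 in Hdac1/2 cKD against NC, Hsph1 at 0.45 and Hsf1 at -0.67 in Sin3a KD against NC, and Hsp90ab1 at -0.028 between the knockdowns. Without the 2 libraries alone on their lanes, these were 0.021, -0.50, 0.67, -0.28 and -0.012, and Hsf1 was at -0.22 between the knockdowns. Equal totals put Hsph1 at 0.073 in Sin3a KD, and TMM put Hsp90ab1 at -0.014 between the knockdowns. Without 1 library at a time, Hsph1 ranged over -0.59 to 0.021 in Hdac1/2 cKD, and between -0.32 and 0.35 in Sin3a KD, and Hsf1 over -0.50 to 1.16, -0.59 to 1.07 and -0.22 to 0.45. Hsp90ab1 ranged over -0.054 to 0.092 between the knockdowns. Same-numbered libraries deviated together with r of -0.02 to 0.06, so the numbers are not taken as pairs. The replicate block gave members of 2 and 1, 1 and 3, and 3 and 0, with Hspa5 added.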
